A study of Arabidopsis thaliana with 18 samples.

Results

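Of the 18 arrays of this series, 6 arrays of leaf RNA from Arabidopsis thaliana that over-expresses StZFP2 were set against each other in 2 sets of 3. The 6 h-like set held the arrays titled 6h wound C, Control A and Control B, and the control-like set held those titled Control C, 1h wound A and 1h wound B. Both sets were chosen by the correlations between arrays over all probe sets, and they differ from the treatments that the labels give. That the leaves behind each set were at a like stage is therefore a hypothesis made from these signals. Every difference between the sets is a description with no test, because the same signals chose the sets.

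The series asked how over-expression of StZFP2, a zinc finger gene of potato, bears on the wound response. Leaves of the wild type Col-0 and of the over-expressor, called OE here, were taken without a wound or at 1 h or 6 h after one, with 3 arrays lettered A, B and C in each of the 6 groups. The OE samples were pools of the lines OEEV47-1 and OEEV47-2 by their sample labels, while the series text names the lines separately. No age, promoter or hour of harvest is given in the sources used here, and there was no unwounded group at 6 h, so that wounding and time of day cannot be told apart in any change from control to 6 h. No probe set measured the potato gene, so its level was not checked. The labels do not say whether the 3 arrays of a group came from separate plants, and p-values then measure only the spread between these arrays, which may be technical.

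The circadian clock of plants is a loop of repressors that peak at different hours: the MYB factors LHY and CCA1 at dawn, the pseudo-response regulators through the day, and TOC1 with the ELF proteins toward the evening. Starch made by day is broken down at night, and the genes for that work follow the clock and the sugar supply. A wound triggers jasmonate within minutes, jasmonate removes the JAZ repressors, and the genes for JAZ proteins and for jasmonate synthesis are themselves among the early targets, while many defence products follow hours later.

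Values are MAS5 signals on a linear scale, in which every array was scaled to a common mean by the authors, and differences are between mean log2 signals. The median signal was between 144.5 and 160.0 on the 6 arrays, and with 3 arrays a set the precision is limited. On 5 of the 6 arrays the hybridisation spike bioB read between 435 and 595, while it read 270 on OE Control C. The other spikes were low on OE Control C as well, with cre at 14553 against 20461 to 23486 on the other 5 arrays. Of 74 genes named below that differed by at least 2-fold with no overlap, all 74 did so without OE Control C too, with differences that moved by a median of 0.08 and at most 0.89 on the log2 scale. Leaving out another array of the 6 ended that for at most 3 of the 74, named where they are described, and list counts that moved with an array left out are given below. As a measure of RNA degradation, the 3′ probe set of actin was divided by the 5′ one, which gave 4.45 to 5.28 in the 6 h-like set and 4.60 to 5.29 in the control-like set. The same ratio for GAPDH was 1.28 to 1.50 and 1.27 to 1.47, so the sets overlapped in both.

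Over all 22746 probe sets other than spikes, the log2 signals of 2 arrays of the same set correlated at r = 0.939 to 0.947, and those of arrays from different sets at 0.921 to 0.931. The arrays of the 6 h-like set correlated at 0.933 to 0.941 with Col-0 at 6 h and at 0.905 to 0.916 with the Col-0 controls. Those of the control-like set correlated at 0.924 to 0.932 with the Col-0 controls, at 0.920 to 0.930 with Col-0 at 6 h and at 0.912 to 0.923 with Col-0 at 1 h. Their correlations with the Col-0 controls and with Col-0 at 6 h thus overlapped, while for the 6 h-like set the 2 ranges were apart. These correlations chose the sets, and they share the level of each probe set on every array.

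A limma model of the 9 Col-0 arrays gave the change to set beside the sets. At an adjusted p below 0.05 it called 2276 of 14838 probe sets higher at 6 h than in the controls (15.3%) and 2018 lower (13.6%). At 1 h it called 541 higher (3.65%) and 326 lower (2.2%). Of these, 886 were higher and 820 lower at 6 h by at least 2-fold, and 294 were higher at 1 h by at least 2-fold. Over the 886 probe sets, the median signal of each array relative to the mean of the 6 OE arrays was 0.54 to 0.64 on the log2 scale in the 6 h-like set and -0.62 to -0.52 in the control-like set. Over the 820, it was -0.42 to -0.17 in the 6 h-like set and 0.29 to 0.49 in the control-like set. The 294 probe sets of the 1 h response did not part the sets: their medians were -0.08, 0.10 and 0.31 on OE Control A, Control B and 6h wound C, and -0.05, -0.41 and 0.17 on OE Control C, 1h wound A and 1h wound B. The 2 arrays titled 1h wound in the control-like set thus lay within or below the range of the 6 h-like set for the early wound genes. The same 294 probe sets read 1.37 to 1.72 on the other 3 OE arrays, titled 1h wound C, 6h wound A and 6h wound B.

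**Figure D1:**
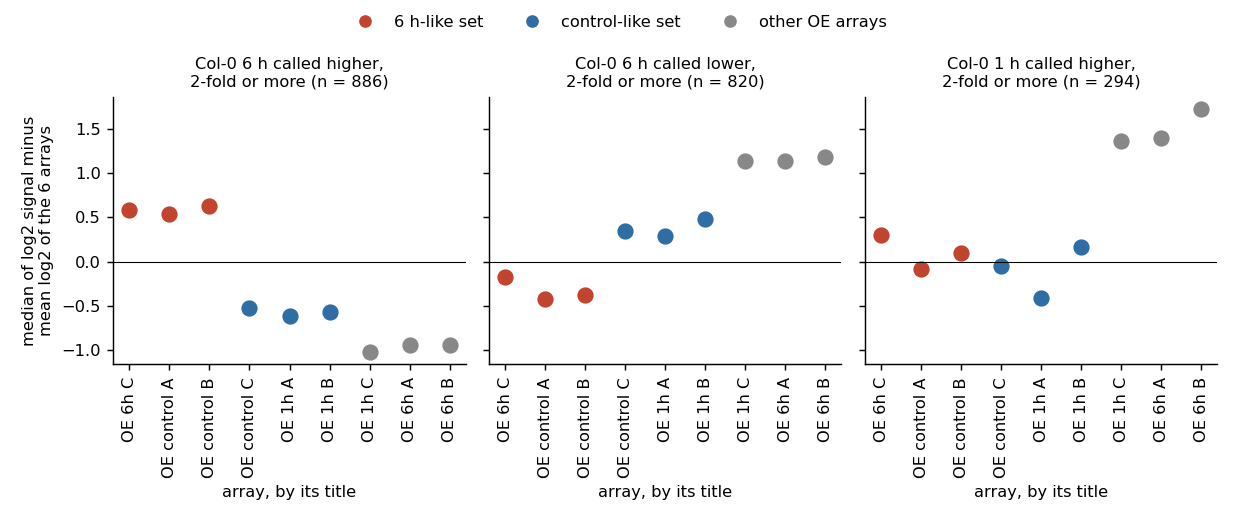
Median log2 signal of each OE array (y axis, relative to the mean of the 6 arrays) over the probe sets that changed by at least 2-fold in Col-0 at 6 h or at 1 h, with arrays named by their titles. The 6 h-like and control-like arrays part over the 6 h genes, and for the 294 genes of the 1 h response their medians lie between -0.41 and 0.31, below the other 3 OE arrays.

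Between the sets, 1088 probe sets were higher in the 6 h-like set by at least 2-fold with no overlap of the arrays (4.78% of 22746) and 859 were lower in the same way (3.78%). Without OE Control C the counts were 1506 and 1061, and with each of the others left out they were 1196 to 1386 and 1108 to 1502. A set of 2 arrays can overlap less readily with 3, and the part of this in the rises was not tested. Without OE 6h wound C the count of lower probe sets was 1502, and without OE 1h wound B it was 1343. The same rule applied to the labelled OE groups, 6 h against control, gave 639 higher and 261 lower, and in Col-0 it gave 1257 and 1216. A limma model of the 9 OE arrays with the labelled groups called 0 probe sets between 6 h and control, with 1029 at an unadjusted p below 0.05. With array weights that model called 5429.

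The difference between the sets resembled the Col-0 change at 6 h across probe sets, with r = 0.376 over 22746 probe sets and 0.688 over the 14838 that passed the filter on low signal. The sets were chosen by correlations that included the Col-0 arrays. The likeness to Col-0 given in this paragraph and below is therefore not independent of that choice. The SD of the difference was 0.67 on the log2 scale over the 14838, and that of the Col-0 change was 0.75. Of the 827 filtered probe sets that were higher in the 6 h-like set, 583 (70.5%) were also called higher in Col-0, 12 were called lower and 232 were not called. Of the 425 that were lower, 316 (74.4%) were called lower in Col-0 and 1 was called higher. These 583 and 316 made up 25.6% and 15.7% of all Col-0 calls in their direction. The resemblance was closer for genes that rose in Col-0 than for those that fell. Of the 886 probe sets 2-fold higher in Col-0, 862 (97.3%) had the same sign between the sets, with a median difference of 1.15 against a median Col-0 change of 1.46. Of the 820 that were lower, 686 (83.7%) had the same sign, and the median difference was -0.68 against -1.39. That the shares of the 2 directions differ was not tested.

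**Figure D2:**
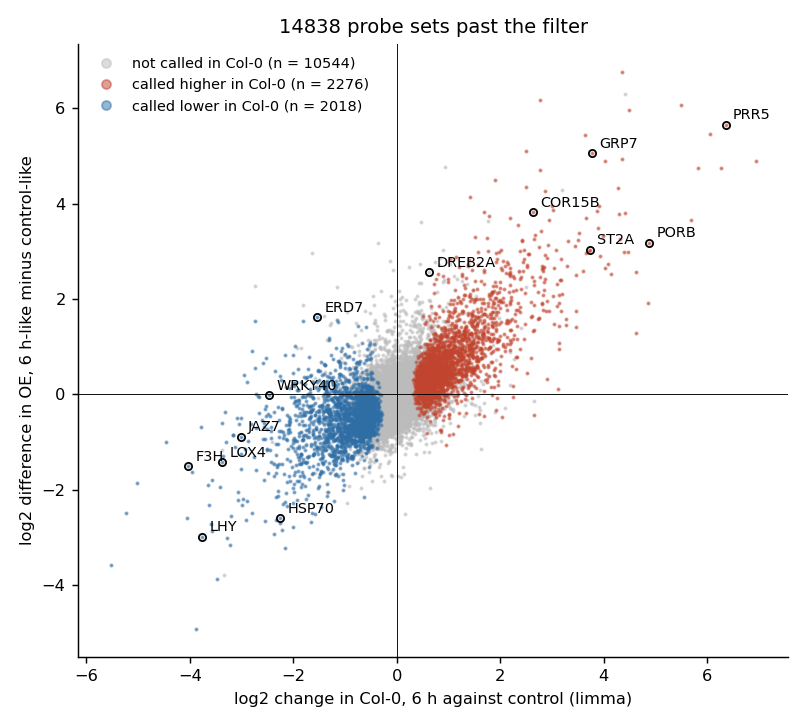
Log2 difference between the OE sets (y axis) against the limma log2 change of Col-0 at 6 h (x axis) for the 14838 filtered probe sets, coloured by their call in Col-0, with 13 genes of the text circled. Points at the upper right and lower left, such as PRR5 and LHY, went the same way in both, while WRKY40 fell in Col-0 and differed by -0.01 between the sets.

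The levels of the 2 sets were also set against the Col-0 groups. Over the 820 probe sets lower in Col-0 at 6 h, the 6 h-like set lay at a median of 0.04 above Col-0 6 h on the log2 scale. The control-like set lay 0.77 above Col-0 6 h and was itself lower than the Col-0 controls, with a median of -0.75. All 3 of its arrays were below the lowest Col-0 control for 482 of these 820 probe sets. Over the 886 probe sets that were higher, the control-like set was 0.54 above the Col-0 controls, with all 3 arrays above the highest Col-0 control for 441, and the 6 h-like set was 0.18 above Col-0 6 h. The share of all probe sets that lay outside the Col-0 controls in this way is not given here. The counts of 482 and 441 therefore have no baseline. The control-like set thus lay on the side of Col-0 6 h in both directions. These probe sets were picked by their change from the same Col-0 controls, and the part of that choice in these levels was not tested. Genotype and the choice of the sets cannot be told apart in them either. The actin ratio was 5.54 to 10.4 on the Col-0 controls, 4.12 to 6.97 on Col-0 6 h and 4.45 to 5.29 on the 6 OE arrays. Its part was not tested.

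Clock genes had the highest and the lowest median difference of the gene lists. Of 14 genes of the day and evening 9 were higher in the 6 h-like set by at least 2-fold with no overlap and none lower, with a median difference of 2.101, or 1.89 with 4 dim members at their lower bound, where the median over all probe sets was -0.04. Of 9 morning genes 6 were lower and none higher, with a median of -1.20. In Col-0 limma called 10 of the 14 higher and 2 lower at 6 h, and 8 of the 9 lower and 1 higher. Over all probe sets 4.78% were higher and 3.78% lower between the sets by this rule, and 15.3% and 13.6% were called in Col-0. Each list count below is to be read beside these shares. With each of the 6 arrays left out in turn, and under 3 other scalings of the signal, the counts were 9 of 14 and 5 to 6 of 9. In the other direction 2 day and evening genes were lower without OE 6h wound C and 1 without OE Control C or OE 1h wound B, and 1 morning gene was higher without OE Control C.

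PRR5, a pseudo-response regulator that represses the morning genes, read 1162 on OE 6h wound C, 1296 on Control A and 1433 on Control B. It read 34.2 on OE Control C, 20.9 on 1h wound A and 23.8 on 1h wound B, which is below the 40th percentile of each array. The 6 h-like set was therefore at least 16.7-fold higher, with the percentile as the floor, as in every such bound here. In Col-0 PRR5 went from 8.79 ± 3.62 in controls to 688 ± 120 at 6 h (SD, n = 3 each; limma adjusted p = 1.5e-05). No Col-0 control was above the 40th percentile, so that the rise was at least 8.77-fold, in the same direction as between the sets. PRR3, its relative, was 422, 593 and 710 in the 6 h-like set, in the order of arrays just given, and 23.2, 4.54 and 20.9 in the control-like set, at least 7.25-fold apart. PRR7, which acts earlier in the day, was 917, 1242 and 1163 against 515, 484 and 543.

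GRP7, an RNA-binding protein whose mRNA is a clock output, was bright and far apart between the sets. It read 20039, 20744 and 19808 in the 6 h-like set and 738, 474 and 644 in the control-like set, a log2 difference of 5.05. The Col-0 controls read 708 ± 200 and Col-0 at 6 h 9627 ± 2163. Its relative CCR1 (AT4G39260), also called GRP8, read 6911, 7107 and 7448 against 2129, 1811 and 2043. In both genes the control-like arrays were near the Col-0 control level and the 6 h-like arrays were above the Col-0 6 h level.

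Genes of the evening complex and its partners followed. ELF4 read 933, 883 and 1271 in the 6 h-like set and 61.4, 41.3 and 49.7 in the control-like set, at least 13.1-fold apart. ELF3 read 338, 281 and 273 against 13.4, 16.7 and 53.2, at least 3.81-fold apart. GI, which links the clock to flowering, read 1247, 1242 and 1246 against 243, 203 and 291, and TOC1 read 407, 499 and 600 against 78.7, 66.8 and 78.8. For ELF4 and TOC1 the 6 h-like arrays were above the Col-0 6 h level, which was 324 ± 103 and 247 ± 48.6. ZTL, an evening F-box protein regulated largely after transcription, had a difference of -0.11, with overlap.

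Of the morning genes, LHY read 403, 362 and 367 in the 6 h-like set and 2786, 3212 and 2952 in the control-like set. The control-like level was under that of the Col-0 controls, 6407 ± 570, while the 6 h-like level was near Col-0 6 h, 481 ± 126. CCA1 read 856, 842 and 838 against 3026, 3130 and 3172, a log2 difference of -1.88, with a Col-0 change of -1.84 ± 0.21 (adjusted p = 5.2e-05). RVE8, a MYB factor that activates evening genes, had a difference of -1.96, and LNK2 (AT3G54500), a partner of the RVE factors, of -1.91. ASG4, a MYB-like factor related to LHY, read 28.3, 0.94 and 11.7 against 221, 191 and 203, at least 2.58-fold lower in the 6 h-like set. CDF1, CDF2 and CDF3, morning repressors of flowering listed with the day genes, had differences of -0.95, -0.92 and -0.82 with no overlap, and in Col-0 CDF1 and CDF2 were called lower.

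**Figure D3:**
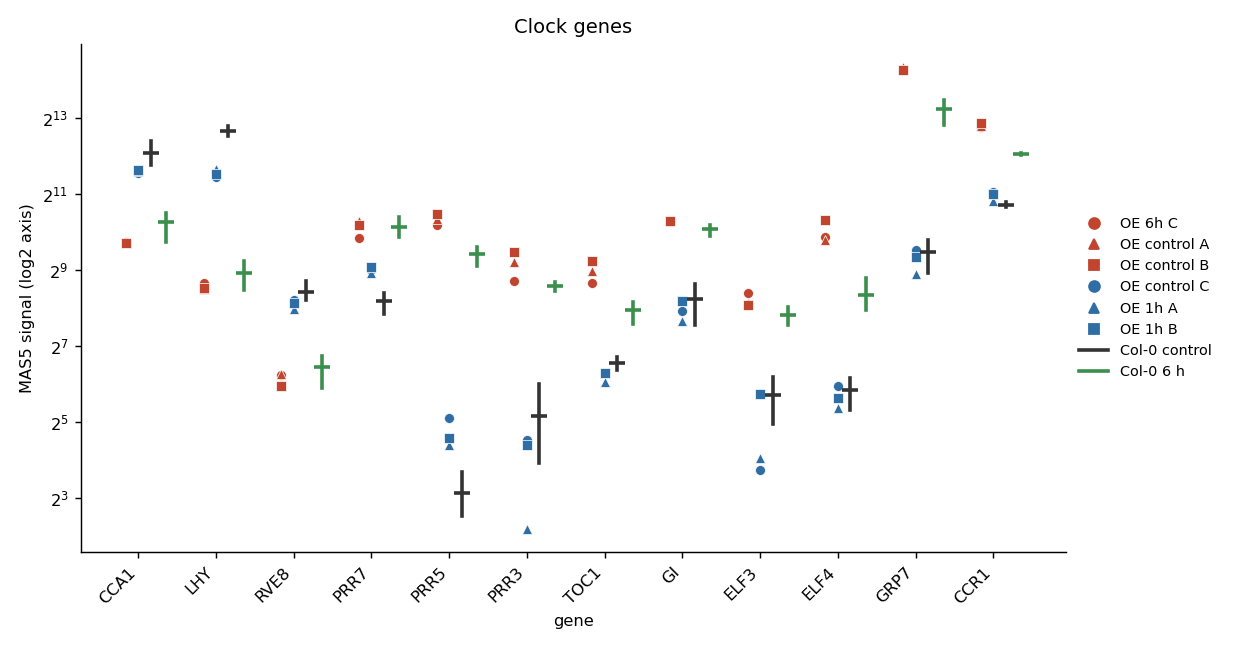
MAS5 signal (y axis, log2 scale) of 12 clock genes on each of the 6 OE arrays (symbols; red for the 6 h-like and blue for the control-like set), with the mean and range of the 3 Col-0 control and 3 Col-0 6 h arrays as bars. In each gene the red and blue arrays do not overlap, and the red ones sit on the side of Col-0 6 h.

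Other genes with the highest differences included several known for a daily rhythm. COR27, a cold- and light-regulated inhibitor that feeds back on the clock, read 568, 510 and 874 on the arrays titled 6h wound C, Control A and Control B, and 25.3, 10.9 and 34.6 on the others, at least 8.17-fold apart. AT2G33830, of the dormancy and auxin associated family, read 6864, 7263 and 8212 against 136, 116 and 108. RbcX1, a chaperone for the assembly of Rubisco, read 3505, 4106 and 4719 against 114, 144 and 148. AT5G23240 and AT1G56300 both encode proteins with a DnaJ domain. The first read 3420, 3224 and 3901 against 72.7, 40.2 and 49.0, at least 45.2-fold apart, and the second 3391, 4036 and 4247 against 140, 78.7 and 61.1. In Col-0 these 5 genes were called higher, COR27 not without Col-0 6 h A (adjusted p = 0.070). AT4G33980 read 675, 340 and 883 against 11.0, 27.1 and 1.40, at least 7.58-fold apart, and was not called in Col-0 (adjusted p = 0.097). Among the lowest, AMT1;2, an ammonium transporter, read 170, 271 and 229 against 1917, 1814 and 2185, and AO, the aspartate oxidase of NAD synthesis, read 115, 110 and 121 against 911, 709 and 890. BSMT1, which makes methyl salicylate and methyl benzoate, had a difference of -2.70 and ACA1 (AT3G52720), a carbonic anhydrase, of -2.68. All 4 were called lower in Col-0 at 6 h.

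Genes of starch breakdown were higher together. Of 16 measured members 9 were at least 2-fold higher in the 6 h-like set with no overlap and none was lower in that way, with a median difference of 1.70. In Col-0 14 were called higher and 2 lower. The shares of all probe sets were 4.78% and 3.78% between the sets and 15.3% and 13.6% in Col-0. ISA3, a debranching enzyme, read 2050, 1938 and 1835 in the 6 h-like set and 163, 260 and 194 in the control-like set, and DPE1, which recycles maltotriose, read 1336, 1421 and 1416 against 176, 168 and 195. SEX1, the glucan water dikinase that opens the granule to attack, read 6296, 7904 and 7521 against 1216, 1104 and 1035. PHS2, the cytosolic phosphorylase, read 9688, 9637 and 8847 against 1677, 1418 and 1429. The control-like level of PHS2 was above that of the Col-0 controls, 453 ± 137, as was that of AMY3, 956 to 961 against 346 ± 38.6. CT-BMY, the main chloroplast beta-amylase also called BAM3, went its own way: it read 10346, 11248 and 10271 against 7161, 7001 and 8064, a difference of 0.52, while in Col-0 it fell by 1.52 on the log2 scale (SE 0.18, adjusted p = 7.2e-05).

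Of 14 genes raised by sugar starvation or darkness, 6 were higher and 1 lower between the sets by the same rule, with a median of 0.99, and Col-0 had 6 called higher and 1 lower. With 1 array left out, 5 to 8 were higher and 1 lower between the sets. The shares of all probe sets were 4.78% and 3.78% between the sets and 15.3% and 13.6% in Col-0. SEN1 (AT4G35770), also called DIN1, read 12309, 7219 and 7691 in the 6 h-like set and 1022, 724 and 1177 in the control-like set, against 384 ± 218 in Col-0 controls and 1925 ± 680 in Col-0 at 6 h. All 6 arrays were thus above the mean of the Col-0 controls. DIN10, a raffinose synthase-like enzyme, had a difference of 2.42 and ASN1, the dark-induced asparagine synthetase, of 1.63. BCAT-2, which degrades branched-chain amino acids, was at least 3.64-fold higher (356, 231 and 273 against 62.3, 42.2 and 64.8), and its Col-0 change of 0.89 ± 0.38 was not called (adjusted p = 0.11). DIN9 was lower, with 162, 116 and 163 against 330, 439 and 310.

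Cold- and abscisic acid-responsive genes were split. Of 18 measured, 7 were higher and 2 lower between the sets with a median of 0.62, whereas in Col-0 4 were called higher and 9 lower with a median of -0.79. With each of the 6 arrays left out or another scaling the counts were 5 to 8 and 1 to 2. The shares of all probe sets were 4.78% and 3.78% between the sets and 15.3% and 13.6% in Col-0. COR15B, a chloroplast protein that protects membranes in frost, read 6840, 7680 and 9501 against 604, 519 and 565, and its Col-0 change was 2.63 ± 0.47 (adjusted p = 0.0012). COR413-PM1 read 14243, 12001 and 11896 against 3236, 3453 and 3477, close to the 10559 ± 1703 of Col-0 at 6 h and the 3073 ± 1293 of its controls. DREB1A, the cold-regulated activator also called CBF3 and listed with 17 ERF and CBF factors, read 1139, 1046 and 1074 against 135, 53.6 and 156. It and DREB2A were the 2 of these 17 that were higher between the sets, and none was lower. Without OE Control A or without OE 1h wound B 4 were higher, and without OE 1h wound A 1 was lower. Its difference of 3.38 stood beside a Col-0 change of 3.51 ± 0.30 (adjusted p = 6.3e-06). LTI78, also called RD29A, read 9238, 9544 and 8303 against 2166, 2173 and 2768, and was not called in Col-0 (0.48 ± 0.51, adjusted p = 0.54), where the controls were spread at 5828 ± 4059. HAB1, a phosphatase that damps abscisic acid signalling, read 1089, 710 and 745 against 2018, 1800 and 2118 and was lower in both comparisons. RD26, HAI1 and ERD10, whose genes respond to drought and were called lower in Col-0 at 6 h with log2 changes of -2.53 to -1.25, had differences of -0.25, 0.20 and 0.31 between the sets.

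Of 17 genes of chlorophyll synthesis and breakdown 3 were higher in the 6 h-like set by at least 2-fold with no overlap and none was lower, beside 4.78% and 3.78% of all probe sets. PORB, a light-dependent protochlorophyllide reductase, read 12547, 11456 and 12057 in the 6 h-like set and 1706, 1279 and 1078 in the control-like set. Col-0 at 6 h read 11546 ± 489 and its controls 408 ± 128, so that the 6 h-like arrays were at the wild-type 6 h level and the control-like arrays above the wild-type controls. PORA (difference 2.08) and NYC1, the first enzyme of chlorophyll b breakdown (1.27), were the other 2. With no overlap at any size 5 of the 17 were higher and 6 lower, beside 16.5% and 17.9% of all probe sets, and the list median was -0.08. In Col-0 5 of the 17 were called higher and 1 lower. Among the 6 lower ones were HEMA1, GUN4, GUN5, CH1 and G4, genes for steps of chlorophyll synthesis or its control, with differences of -0.77 to -0.57. None of these 5 was called in Col-0, where their changes were -0.34 to 0.12. Of 24 genes of the photosystems and light harvesting, none differed by 2-fold with no overlap, and their differences ranged from -0.28 to 0.15.

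Phenylpropanoid and flavonoid genes fell in Col-0 and were lower between the sets by less. Of 18 tested, 12 were called lower in Col-0 and none higher, beside 13.6% and 15.3% of all probe sets, with a median change of -1.19. Between the sets 4 of 20 were lower and 2 higher, beside 3.78% and 4.78% of all probe sets, with a median of -0.42. F3H, an early flavonoid enzyme, read 487, 214 and 295 against 938, 924 and 806 and differed by -1.50. In Col-0 it fell by 4.03 on the log2 scale, from 2586 ± 229 to 160 ± 32.0, so all 6 OE arrays lay between the 2 Col-0 groups. TT4, chalcone synthase, read 1619, 1024 and 1137 against 3422, 3607 and 3138. PAL1, the entry enzyme of the pathway, read 1061 to 1301 in the 6 h-like set and 1236 to 1847 in the control-like set, with overlap, under the 4258 ± 582 of the Col-0 controls. The late anthocyanin genes went the other way: DFR read 676, 187 and 374 against 118, 118 and 68.0, and UF3GT read 520, 230 and 393 against 99.6, 52.9 and 92.7. Neither was called in Col-0 (adjusted p = 0.997 and 0.30). On OE 6h wound C both were above the other arrays of the set, as was MYB90, an activator of anthocyanin genes also called PAP2, at 471 against 73.9 and 66.7.

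**Figure D4:**
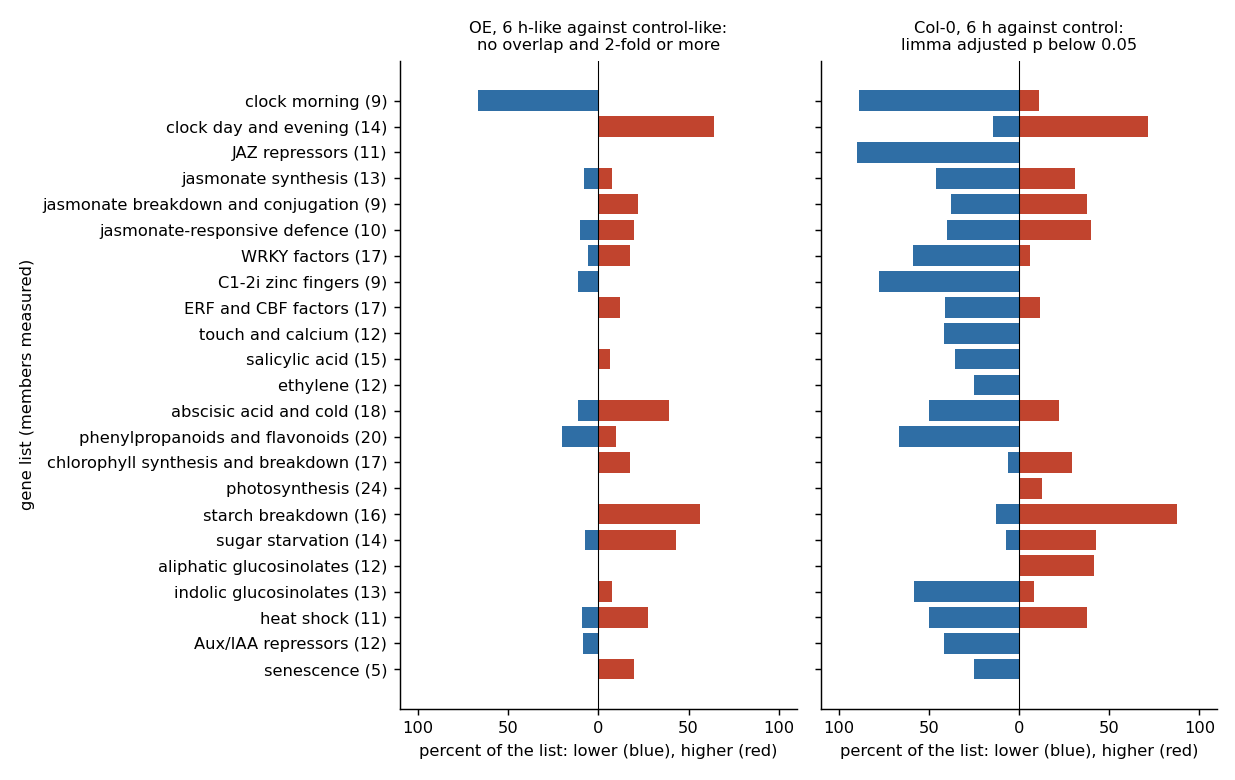
Percent of each gene list that was higher (red) or lower (blue): left, between the OE sets by at least 2-fold with no overlap, of the members measured; right, in Col-0 at 6 h against control by limma, of the members tested. Clock and starch genes stand out on both sides, while JAZ and C1-2i zinc finger genes, of which 9 of 10 and 7 of 9 were called lower in Col-0, are at 0 and 1 member between the sets. Over all probe sets 4.78% were higher and 3.78% lower between the sets, and 15.3% and 13.6% were called so in Col-0.

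Of 10 jasmonate-responsive defence genes 2 were higher and 1 lower between the sets, with a median difference of 0.23, and in Col-0 4 were called higher and 4 lower. Of 9 genes of jasmonate breakdown and conjugation 2 were higher and none lower, with 3 called higher and 3 lower of 8 in Col-0. Over all probe sets 4.78% were higher and 3.78% lower between the sets, and 15.3% and 13.6% were called so in Col-0. With 1 array left out the lower defence genes were 1 to 2, and the breakdown genes 2 to 3 higher and 0 to 1 lower. The 4 genes that were higher, and the lower one, went the same way in Col-0. ST2A, the sulfotransferase that inactivates 12-hydroxyjasmonate, read 4368, 2552 and 4181 in the 6 h-like set and 442, 448 and 430 in the control-like set, against 5051 ± 626 in Col-0 at 6 h and 402 ± 160 in its controls. RNS1, a wound-induced ribonuclease, read 4194, 3271 and 4200 against 787, 726 and 696, with Col-0 at 5926 ± 236 and 753 ± 420. AT2G38240, a jasmonate oxidase, read 2926, 1831 and 2868 against 539, 664 and 594. NATA1, which acetylates ornithine in defence, read 9165, 6585 and 12643 against 5060, 3020 and 1867. The 4 genes were called higher in Col-0 at 6 h (log2 changes 1.79 to 3.73). None of them was called at 1 h. TPS04, which makes the precursor of the volatile TMTT, was the lower one, at 335, 187 and 203 against 1146, 860 and 913. PDF1.2, a defensin, was 953, 652 and 1792 against 5310, 3386 and 1464, with overlap.

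Of 11 JAZ genes measured, none was 2-fold different with no overlap, beside 4.78% higher and 3.78% lower of all probe sets, and the median difference was -0.13. Without OE 6h wound C or without OE Control C 2 were lower. With no overlap at any size 3 were higher and 3 lower, beside 16.5% and 17.9% of all probe sets. In Col-0 9 of the 10 tested were called lower at 6 h, with a median change of -1.38, and 3 were called higher at 1 h. JAZ10 read 914, 578 and 988 in the 6 h-like set and 1076, 1464 and 1040 in the control-like set, against 3067 ± 679 in the Col-0 controls, 5056 ± 1130 at 1 h and 1010 ± 197 at 6 h. Both sets thus lay nearer to the Col-0 6 h level than to the Col-0 controls, and the 6 h-like arrays were the lower ones. For 8 of the 10 JAZ genes all 3 control-like arrays were below the lowest Col-0 control, and for 7 of the 10 all 3 arrays of the 6 h-like set were. The matching share of all probe sets is not given here, so neither count is read as particular to JAZ genes.

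Of 13 genes of jasmonate synthesis 1 was higher and 1 lower between the sets by the 2-fold rule, and 5 and 2 with no overlap at any size. Without OE Control A 2 were higher by the 2-fold rule. Of all probe sets 4.78% were higher and 3.78% lower by that rule, and 16.5% and 17.9% with no overlap at any size. In Col-0 4 were called higher and 6 lower, beside 15.3% and 13.6% of all probe sets. AOC3, an allene oxide cyclase, read 573, 248 and 436 against 545, 419 and 693, with overlap, where the Col-0 controls read 2736 ± 1036 and Col-0 at 6 h 456 ± 94.2. JAR1, which conjugates jasmonate to isoleucine, read 2679, 1718 and 2394 against 2458, 2551 and 2324, with 7983 ± 2253 in the Col-0 controls. LOX4, a lipoxygenase, was the member that was lower: 640, 350 and 429 against 1044, 1246 and 1408, both under the 3628 ± 768 of the Col-0 controls. The member that was higher was PKT3, a thiolase of beta-oxidation also called KAT2, at 6987, 6185 and 5896 against 2721, 2204 and 2024. Of the cytochromes that oxidise jasmonoyl-isoleucine, CYP94C1 read 273, 238 and 270 against 176, 233 and 134, where the Col-0 controls read 1722 ± 465.

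None of 12 touch and calcium genes and 1 of 9 C1-2i zinc finger genes differed by 2-fold with no overlap. Over all probe sets 4.78% were higher and 3.78% lower in that way, so counts this low in lists this short are near that share. All 12 touch and calcium genes overlapped between the sets. Of all probe sets, 16.5% were higher and 17.9% lower with no overlap at any size. By the 2-fold rule 2 of the 12 were higher without OE 1h wound B and 1 was lower without OE 1h wound A. The 1 zinc finger gene, AT3G53600, was below the 40th percentile on all 6 arrays. STZ, a zinc finger repressor also called ZAT10, read 2861, 810 and 1747 in the 6 h-like set and 1151, 445 and 3949 in the control-like set. TCH4, a xyloglucan-modifying enzyme raised by touch, read 1949, 446 and 1265 against 778, 287 and 1984. ERF11 read 627, 200 and 408 against 572, 222 and 1884, and SZF1 read 954, 266 and 716 against 671, 297 and 2307. In each of these 4 genes OE Control A was the lowest of its set and OE 6h wound C the highest, and OE 1h wound A was the lowest of its set and OE 1h wound B the highest. In Col-0 STZ, ERF11 and SZF1 rose at 1 h and fell at 6 h relative to controls, and TCH4 was not called at either time.

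**Figure D5:**
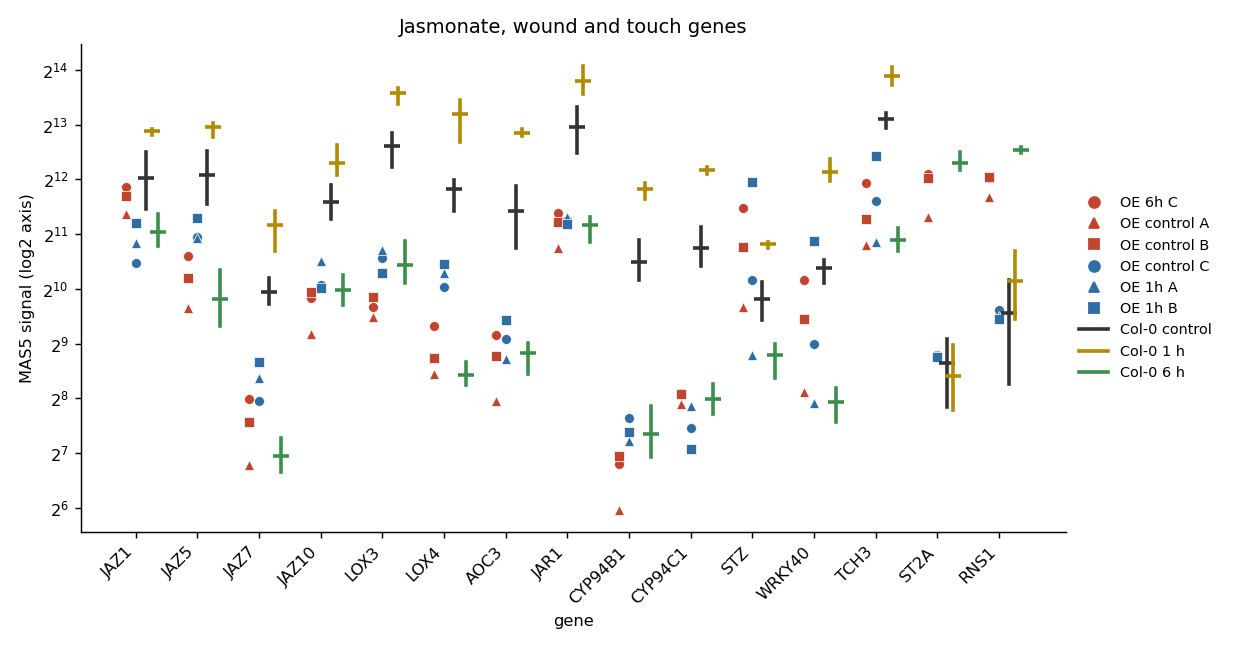
MAS5 signal (y axis, log2 scale) of 15 jasmonate, wound and touch genes on the 6 OE arrays (red for the 6 h-like and blue for the control-like set), with bars for the mean and range of the Col-0 control, 1 h and 6 h arrays. For ST2A and RNS1 the control-like arrays lie near the Col-0 control mean, and the 6 h-like arrays lie above them but below the Col-0 6 h mean. For JAZ10, AOC3, JAR1 and CYP94C1 all 6 arrays lie below the Col-0 controls.

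Among 17 WRKY factors, 10 were called lower and 1 higher in Col-0 at 6 h, and 12 were called higher at 1 h. Between the sets 3 were higher and 1 lower, with 5 higher without OE 1h wound B and 2 without OE 6h wound C or OE 1h wound A. The shares of all probe sets were 4.78% higher and 3.78% lower between the sets. In Col-0 they were 15.3% higher and 13.6% lower at 6 h, and 3.65% higher at 1 h. WRKY54, which restrains leaf senescence, was higher in both, at 1240, 1459 and 891 against 258, 92.2 and 323. WRKY25 read 405, 358 and 395 against 195, 165 and 213 and WRKY26 read 243, 253 and 220 against 110, 77.3 and 121. WRKY25, no longer 2-fold higher without OE 6h wound C or OE 1h wound A, fell in Col-0 by 0.95 on the log2 scale (adjusted p = 0.00094), and WRKY26 was not called. WRKY40, a rapid wound- and pathogen-induced repressor, had the widest spread, 1149, 279 and 701 against 511, 241 and 1873, with overlap. The lower member, WRKY30, was below the 40th percentile on all 6 arrays.

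Of 2849 genes with no overlap between the sets and a call in Col-0 at 6 h, 2745 went the same way in both and 104 (3.65%) the opposite way, 11 of them by at least 2-fold. The sets were chosen by correlations that included the Col-0 arrays, so these counts are not independent of that choice. Among the 104, some were higher in the 6 h-like set and called lower in Col-0. ERD7, a dehydration-responsive protein, read 3001, 1862 and 2724 against 783, 702 and 953, with Col-0 controls at 5163 ± 2613 and Col-0 6 h at 1582 ± 145. ERD6, a sugar transporter of the vacuole, read 1591, 1689 and 1604 against 892, 579 and 726, with Col-0 at 3063 ± 250 and 1253 ± 228. CEJ1, an ERF-type repressor of cold and defence genes, read 329, 216 and 236 against 126, 62.4 and 112. NAC3 (AT3G15500), a stress NAC factor also called ANAC055, read 194, 113 and 106 against 105, 30.2 and 78.8, so that the nearest arrays read 106 and 105, and it was no longer 2-fold higher with no overlap without OE 6h wound C or OE 1h wound A. The Col-0 call of CEJ1 (adjusted p = 0.035) was lost without Col-0 6 h A (0.14), Col-0 6 h B (0.054) or Col-0 control B (0.14) and with no variance trend (0.057). That of NAC3 (0.013) was lost without Col-0 6 h B (0.054) or control B (0.052). With all 18 arrays in the limma fit the calls of CEJ1, NAC3, ERD7 and ERD6 were lost (adjusted p = 0.45, 0.33, 0.14 and 0.087). In ERD7 and ERD6 the control-like arrays were the lowest of the 4 groups, under both Col-0 groups.

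Other genes differed between the sets with no call in Col-0. DREB2A, an activator of drought and heat genes, read 422, 232 and 312 against 69.4, 34.5 and 61.3, at least 4.03-fold higher, with 109 ± 17.5 in the Col-0 controls and 168 ± 31.1 at 6 h (adjusted p = 0.089). NAC019, a NAC factor of abscisic acid and jasmonate signalling, read 4380, 1906 and 3238 against 818, 912 and 954, and its Col-0 change was -0.61 ± 0.32 (adjusted p = 0.18). NAC6, also called ORE1, a regulator of leaf senescence, read 358, 423 and 338 against 100, 110 and 127, with a Col-0 change of 0.16 ± 0.26 (adjusted p = 0.69). The other 4 senescence genes measured did not differ by 2-fold without overlap, and SAG12, a marker of late senescence, was below the 40th percentile on all 6 arrays.

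Conversely, 397 genes were called with a change of at least 2-fold in Col-0 at 6 h and differed by less than 0.5 on the log2 scale between the sets. By probe set, 137 of the 886 that were higher in Col-0 and 306 of the 820 that were lower differed by less than 0.5. The SD of the difference was 0.67 over the filtered probe sets, and the share of all probe sets under 0.5 is not given here. CER1, an enzyme of wax alkane synthesis, rose in Col-0 from 94.4 ± 19.1 to 533 ± 48.1 and read 301, 219 and 407 in the 6 h-like set and 243, 403 and 110 in the control-like set. RLP23, the receptor-like protein that senses a peptide of NLP toxins, fell in Col-0 from 1122 ± 178 to 183 ± 65.7 and read 244, 214 and 152 against 258, 156 and 217. MYB74 fell in Col-0 by 2.55 on the log2 scale and read 85.1, 55.7 and 83.2 against 80.1, 115 and 79.9. For RLP23 and MYB74 all 6 arrays were near the Col-0 6 h level, and for CER1 they were spread between the means of the 2 Col-0 groups.

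Heat shock genes were mixed in both comparisons. HSP70 read 494, 268 and 303 in the 6 h-like set and 2861, 1441 and 2172 in the control-like set, and fell in Col-0 by 2.25 on the log2 scale. The small heat shock genes HSP17.4 and HSP17.6II and the cochaperone BAG6 were higher by at least 2.23-fold, 1.27-fold and 2.90-fold and were called higher in Col-0, HSP17.6II not under every alternative. HSFA2, the heat shock factor that sustains the response, was called lower in Col-0 (adjusted p = 0.0037) and read 60.1, 44.6 and 41.7 against 100, 74.4 and 63.3. Of the glucosinolate genes, 5 of 12 aliphatic ones rose in Col-0 and none differed by 2-fold with no overlap between the sets. Over all probe sets 15.3% were called higher and 13.6% lower in Col-0, and 4.78% were higher and 3.78% lower between the sets. MAM1, the first enzyme of side-chain elongation, read 15941, 21749 and 17912 against 11584, 14218 and 14307 and rose in Col-0 by 1.23 ± 0.14. Of 12 indolic genes tested 7 fell and 1 rose in Col-0. MYB34, their activator, read 488, 586 and 713 against 898, 1300 and 1018. The 1 indolic gene past the rule between the sets, MYB122, was below the 40th percentile on all 6 arrays.

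Lists for salicylic acid, ethylene and the Aux/IAA repressors had 1 of 15, 0 of 12 and 1 of 12 members past the rule between the sets in either direction, beside 4.78% and 3.78% of all probe sets. With 1 array left out the ethylene genes were 0 to 1 higher and 0 to 2 lower. In Col-0, 5 of 14 salicylic acid genes tested, 2 of 8 ethylene genes and 5 of 12 Aux/IAA genes were called lower at 6 h and none higher. Over all probe sets 13.6% were called lower and 15.3% higher. AXR3, an Aux/IAA repressor of auxin response, read 889, 1013 and 1045 against 1839, 2272 and 2237, and NIMIN1, a partner of NPR1, read 133, 172 and 106 against 53.4, 47.2 and 85.0. NIMIN1 was not past the rule without OE Control A or OE 1h wound A. ACS6, a wound-induced enzyme of ethylene synthesis, read 855, 408 and 708 against 1120, 483 and 2982, with overlap and with the same order of arrays within the sets as the touch genes.

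Within the sets, the array whose titled treatment no other array of its set shared was compared with the others. OE 6h wound C differed from both OE Control A and OE Control B by at least 2-fold at 113 of 14283 probe sets (91 above, 22 below), which is 0.791%. OE Control A did so at 0.658% and OE Control B at 0.301%. DIN2, a dark-induced beta-glucosidase, read 329 on 6h wound C against 9.06 and 16.5 on Control A and B, and MIOX2, a myo-inositol oxygenase, read 178 against 41.9 and 41.7. DOX1, an alpha-dioxygenase, read 132 against 1.38 and 11.3. In the control-like set OE Control C stood apart at 0.835% of 14373 probe sets, 1h wound A at 1.31% and 1h wound B at 1.19%. Most of the probe sets in which 1h wound A stood apart were below the others, 162 of 189, and most of those of 1h wound B were above, 119 of 171. The 5 genes furthest above the rest of the set on OE Control C, GRP17, ABCG16, AT1G78260, EMB175 and ZF14, were dim, at 84.3 to 164 there and at most 20.9 on the other arrays of the set.

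The tissue label was checked against markers. The 4 mesophyll genes RCA, CA1, LHCB3 and LHCB6 were among the brightest, with a summed signal of 95749 to 106149 in the 6 h-like set, 115170 to 123810 in the control-like set and 105413 to 126649 on the Col-0 arrays. CA1, a carbonic anhydrase of the chloroplast, read 18347, 18982 and 17077 against 25498, 27205 and 25775. No marker of the mesophyll, guard cells, phloem or epidermis differed by 2-fold with no overlap. Guard cell markers summed to 2570 to 2895 in the 6 h-like set and 2987 to 3174 in the control-like set, phloem markers to 8282 to 10088 and 8072 to 9769, and epidermis markers to 1010 to 1457 and 1586 to 1682. Of 5 floral organ markers, AP1, AP3, SEP3 and PI were below the 40th percentile on all 6 arrays. Of 3 root markers, which summed to 544 to 638 and 660 to 741, PYK10 was higher in the 6 h-like set (231, 128 and 243 against 65.9, 56.5 and 26.3) and was called higher in Col-0 at 6 h, though not without Col-0 6 h A (adjusted p = 0.050). In leaves measured in bulk, fewer cells of a type and less RNA per cell cannot be told apart, and the part of cell makeup in the differences between the sets was not tested.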

How the data were processed

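Signal intensity came from 18 Affymetrix ATH1 arrays. Per the submitters' processing notes the authors made the values with MAS5, whose version is not given in the sources used here, and the deposited intensity is on a linear scale. A further 90 value columns, whose names do not say which sample they belong to, were not used. Of 22810 probe sets, 64 AFFX controls were set aside and 21557 had 1 gene. Presence calls were not used, so dim signals were judged by the 40th percentile of their array.

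Signals were taken to log2. The OE sets were compared by mean difference and by lack of overlap, with no test. The labelled groups of each genotype were tested with limma 3.58.1 in R 4.3.3 (9 arrays, 1 mean per group, variance trend, two-sided, Benjamini-Hochberg adjustment) over the 14838 probe sets that reached the 40th percentile on at least 3 arrays; the code was tested on simulated data. Replicate letters were not a block: same-lettered arrays deviated from their group means with r of -0.004 to 0.10 in Col-0 and -0.60 to -0.36 in OE. Of several probe sets for a gene the brightest was used. Names came from RefSeq (22246 probe sets had a locus there). Genes named were the highest and lowest between the sets, those opposite to Col-0, those alike between the sets but called in Col-0, those apart within a set and the list members. A fold is "at least" where every array of the dimmer set was below the percentile. The sets, the lists (359 members, 346 matched by locus and symbol) and the naming rule were chosen with earlier results of these data known. Alternatives were the replicate block, quantile normalization, subtraction of array medians, addition of 16 before log2, a filter at the 60th percentile or none, array weights, a fit with no variance trend, all 18 arrays in 1 model, and each array left out. List counts and genes past the rule with each array left out were added after seeing the data. Figures were drawn with matplotlib.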

Additional observations from a re-analysis of the deposited data

How the results depend on the processing

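In Col-0 the count of 4294 probe sets called at 6 h was 3198 to 4355 with each array left out, 4175 with the replicate letter as a block, and 2351 with all 18 arrays in the fit. For OE 6 h against control as labelled, the count of 0 was 0 with the replicate block and with each array left out, 5429 with array weights and 2 with all 18 arrays; the cause was not tested. Between the OE sets, 1088 higher probe sets became 1196 to 1506 and 859 lower ones 1061 to 1502 with 1 array left out. The lower count was 425 over filtered probe sets and 431 after addition of 16. The share of higher probe sets was 55.9%, 58.2% after quantile normalization, 52.0% after subtraction of array medians, 66.1% over filtered probe sets and 44.3% without OE 6h wound C. The r with the Col-0 change was 0.344 to 0.370 with 1 array left out, 0.596 after addition of 16 and 0.688 over filtered probe sets. With 1 of the 6 arrays left out, the starch, C1-2i zinc finger, glucosinolate, heat shock, Aux/IAA and senescence lists moved by at most 1 gene in either direction. So did the phenylpropanoid and flavonoid list and the epidermis and floral organ markers. For the genes named, no set difference past the rule changed sign, and Col-0 calls were unchanged in 1619 of 1695 refits. Calls were lost in 59, of which 31 were with all 18 arrays, and gained in 17. G4 was called lower after subtraction of array medians (-0.42) and with the stricter filter, AT4G33980 was called higher with no filter (4.42), and HSP17.6II was not called after quantile normalization (1.90). Spikes on OE Control C were low, presence calls were not used, and 3 arrays a set limit every difference.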
